A study of Rattus norvegicus with 8 samples.

Results

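The miR-344 family was described in the striatum of rats after methamphetamine (METH) self-administration. The members were the 4 mature miRNAs named rno-miR-344a-3p, rno-miR-344a-5p, rno-miR-344b-3p and rno-miR-344b-5p, where rno stands for Rattus norvegicus and is left out from here on, chosen by name and found as 4 of the 752 rows of the count table. Another 3 rows carry the family name, miR-344b-1-3p, miR-344g and miR-344i, and they are given beside the members. The small RNA libraries came from 8 wild-type male Sprague-Dawley rats, 4 that self-administered METH and 4 that self-administered saline, with 1 library per rat. Rats of both groups had been trained with food to press a lever and carried a jugular catheter, and the METH group infused METH dissolved in saline. More rats self-administered than were sequenced, and 4 per group with stable lever pressing over the last sessions were chosen for plasma sampling. Whether these are the sequenced rats is not stated. The METH group may thus stand for stable responders rather than for all exposed rats. Age is not given in the sources used here, and the tissue is whole striatum, a forebrain region of reward and movement, so fewer cells of a type and less miRNA per cell cannot be told apart.

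A miRNA gene is transcribed as a longer RNA that folds into a hairpin, and the enzymes Drosha and Dicer cut from it a short duplex with a 5p arm and a 3p arm. Usually an Argonaute protein keeps mainly one arm as the guide, and the other, the passenger, is degraded. Bases 2 to 8 of the guide, the seed, do most of the pairing with target mRNAs. The miR-344 family is found in rodents, where it is expressed in the brain, and several of its hairpins are near copies of each other. In the RefSeq annotation of the assembly GRCr8, the 7 miR-344 genes lie on the minus strand of chromosome 1 in the order Mir344b-2, Mir344b-1, Mir344b-3, Mir344a-2, Mir344-1, Mir344g and Mir344i, with 0 protein-coding genes and 7 long noncoding RNA genes among them. The next protein-coding genes after Mir344i are Ndn, Magel2, Mkrn3 and Peg12, which are imprinted genes of the region that corresponds to the human Prader-Willi locus. The reads had been aligned to rn6, so GRCr8 served for gene order and sequence only.

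A mature sequence was found in RefSeq (GRCr8) for 3 of the 4 members and for 6 of the 7 rows, and the one without an entry under its name was miR-344a-3p. Mature sequences are shown first because they decide which targets each member can pair with and how easily reads of related members can be told apart. Each runs 5′ to 3′, with the seed in capitals. RefSeq lists miR-344-3p for Mir344-1, which has the synonym Mir344a-1, and this sequence is printed under its own name, not as that of miR-344a-3p.
miR-344a-5p: uCAGGCUCcuggcuagauu
miR-344-3p: uGAUCUAGccaaagccugaccgu
miR-344b-5p: aGUCAGGCugcugguuauauuc
miR-344b-3p: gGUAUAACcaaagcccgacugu
miR-344b-1-3p: gAUAUAACcaaagcccgacugu
miR-344g: aGUCAGGCuccuggcaggaguc
miR-344i: cUCUAGCCagggcuugacugca

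Although they share a name, the 3p arms carry 4 different seeds, GAUCUAG in miR-344-3p, GUAUAAC in miR-344b-3p, AUAUAAC in miR-344b-1-3p and UCUAGCC in miR-344i. The sequences of miR-344b-3p and miR-344b-1-3p differ by 1 substitution in 22 bases, G2A, counted from the 5′ end of miR-344b-3p, and this base lies in the seed. Among the 5p arms, miR-344b-5p and miR-344g share the seed GUCAGGC, and miR-344a-5p has CAGGCUC. Of these seeds, 2 also occur outside the family. That of miR-344b-1-3p is shared with miR-410-3p, a brain miRNA of the imprinted Dlk1-Dio3 region, and that of miR-344a-5p is shared with miR-484.

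The precursors show where these arms lie, and how alike the gene copies are. In each hairpin, capitals mark the mature RNAs that RefSeq annotates on it.
Mir344b-2: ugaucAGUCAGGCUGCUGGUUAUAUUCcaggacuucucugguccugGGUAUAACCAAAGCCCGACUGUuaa
Mir344b-1: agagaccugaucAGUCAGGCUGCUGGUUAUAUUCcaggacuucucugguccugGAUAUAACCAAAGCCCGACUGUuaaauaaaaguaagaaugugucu
Mir344a-2: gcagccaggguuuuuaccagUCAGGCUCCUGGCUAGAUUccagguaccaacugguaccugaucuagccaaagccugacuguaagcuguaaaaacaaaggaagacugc
Mir344-1: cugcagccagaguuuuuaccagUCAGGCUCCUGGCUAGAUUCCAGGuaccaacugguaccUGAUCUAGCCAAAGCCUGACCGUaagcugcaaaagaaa

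The hairpins of Mir344b-2 and Mir344b-3 were identical over all 71 bases, and Mir344b-1 matched them at 70 of 71. Mir344a-2 and Mir344-1 matched at 89 of 92 aligned bases, whereas Mir344b-2 and Mir344a-2 matched at 52 of 66. The mature sequence of miR-344b-5p therefore occurs in 3 hairpins, those of miR-344b-3p and miR-344a-5p each in 2, and those of miR-344b-1-3p, miR-344g and miR-344i each in 1. How the authors counted a read that fits several places is not stated, so separate values of these rows are uncertain where reads could be shared.

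The libraries held 12929302 to 27632443 miRNA counts, with the smallest from METH rat 1, and levels are given as CPM, which are counts scaled to one shared library size by TMM, a trimmed mean of M-values. METH rat 4 had the lowest scaling factor, 0.766 against 0.959 to 1.15 in the others, so results that rest on it are also given without it. Of the 507 miRNAs that passed the low-count filter, 0 (0%) passed an adjusted p of 0.05 between METH and saline when fitted by quasi-likelihood in edgeR, and 28 had an unadjusted p under 0.05 (5.52%). DESeq2 called 8 and the exact test of edgeR called 6. All 6 neuronal marker miRNAs were detected, led by miR-124-3p, and their summed level was 282165 to 486967 CPM in saline rats and 319118 to 471441 CPM in METH rats. The sum of 8 epithelial marker miRNAs, none of them at 0 in any library, was 26.7 to 62.8 CPM in saline rats and 104 to 2350 CPM in METH rats. Its part in the miR-344 values was not tested. Over the 7 marker lists, 0 miRNAs were called in the quasi-likelihood fit, whereas the 8 calls of DESeq2 and the 6 of the exact test all lay in these lists. The median log2 fold change of a list ran from -0.17 for oligodendrocyte to 3.94 for epithelium. The miRNAs of the epithelial list had, however, been reported by the paper as higher after METH in the same libraries. Where the calls lay and the high epithelial median are thus not independent evidence of a cell type.

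The arms of the family differed widely in level. miR-344a-3p was the abundant member, at 768 CPM over all 8 rats and rank 83 of the 752 rows. miR-344b-3p followed at 4.11 CPM and rank 393, and miR-344a-5p at 1.20 CPM and rank 465. miR-344b-5p had 0 counts in every library, and a limit of 3 counts corresponds to 0.109 to 0.206 CPM per library. Its sequence occurs in 3 hairpins, and the counting rule is not stated. The limit therefore bounds its level only if reads that fit several places were counted. This order of the 4 members held in 8 of 8 rats, and the 3 members with counts passed the low-count filter. The mature length was 19 bases for miR-344a-5p and 22 for miR-344b-3p, and a read covers a whole mature miRNA, so CPM was compared between them without division by length.

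**Figure D1:**
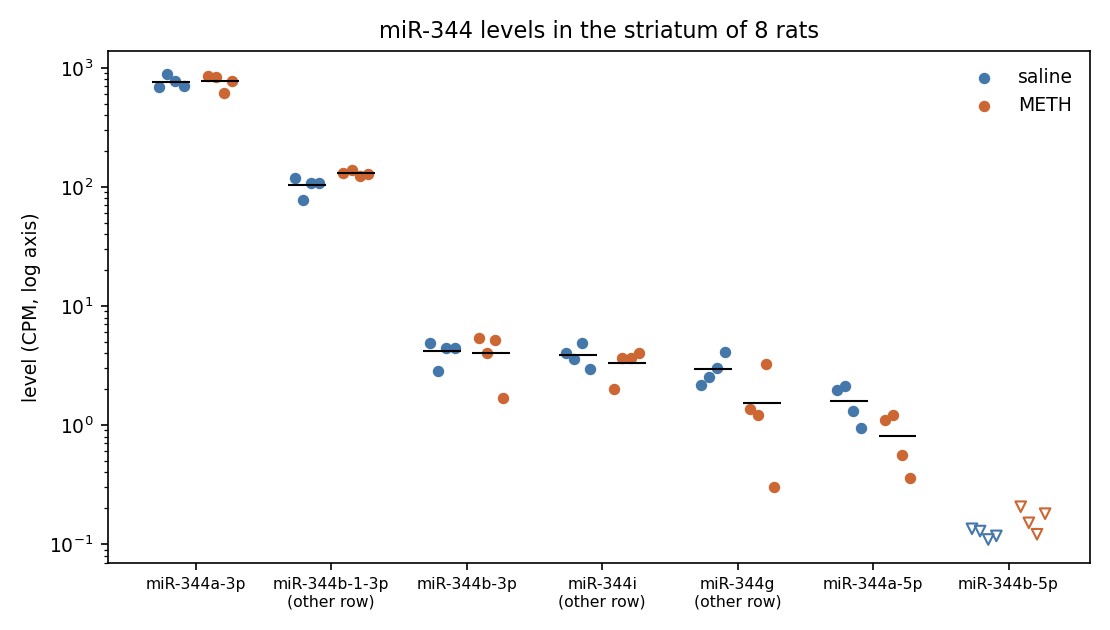
Level of each miR-344 row in each rat, in CPM on a log axis, with rats of a group side by side and a line at each group mean. Filled points are measured levels and open triangles mark the limit of 3 counts where a library had 0 counts. miR-344a-3p lies between 619 and 886 CPM in all 8 rats, and miR-344b-5p was not detected.

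Among the other rows of the family, miR-344b-1-3p was second in the whole set, at 117 CPM and rank 173. miR-344a-3p was 6.58 times as abundant as miR-344b-1-3p, and miR-344b-1-3p was 28.4 times as abundant as miR-344b-3p, both in 8 of 8 rats. miR-344i stood at 3.60 CPM and miR-344g at 2.25 CPM. The mean of miR-344b-3p was 1.14 times that of miR-344i, and this order was kept in 5 of 8 rats, so the levels of these neighbours did not differ beyond their spread. The order of miR-344i over miR-344g held in 7 rats and that of miR-344g over miR-344a-5p in 6. Summed over the 7 rows, the family reached 755 to 989 CPM per rat, and miR-344a-3p made up 82.0% to 90.9% of it.

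The first comparison asked whether the abundant 3p arm changed with METH self-administration. Counts of miR-344a-3p were 15417, 20658, 21409 and 18147 in saline rats 1 to 4, which corresponds to 691, 886, 781 and 709 CPM. In METH rats 1 to 4 the counts were 12363, 16555, 15354 and 12939, or 849, 833, 619 and 777 CPM. The groups overlapped, with the highest rat in the saline group and the lowest in the METH group. The mean was 767 ± 88.6 CPM (SD, n = 4) in saline rats and 770 ± 105 CPM (SD, n = 4) in METH rats. The fitted log2 fold change was 0.01, with an SE of 0.20 and an edgeR adjusted p of 0.989. Its 95% interval was -0.43 to 0.44 on the log2 scale, or 0.740-fold to 1.36-fold, so a change of 1.5-fold lay outside it.

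miR-344a-3p also varied little between rats. Its coefficient of variation (CV, the SD divided by the mean) over the 8 rats was 11.7%, the 14th lowest of the 507 miRNAs tested. Of the 100 tested miRNAs nearest to it in level, 2 had a lower CV, and their median CV was 28.1%. The CV of miR-344b-1-3p was 16.2%, with 8 of its 100 neighbours lower. By contrast, miR-344b-3p had a CV of 30.6% against a neighbour median of 34.8%, and miR-344a-5p, with 6 to 50 counts per library, had a CV of 51.7% against 38.1%. These are descriptions over 8 libraries of both groups.

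**Figure D2:**
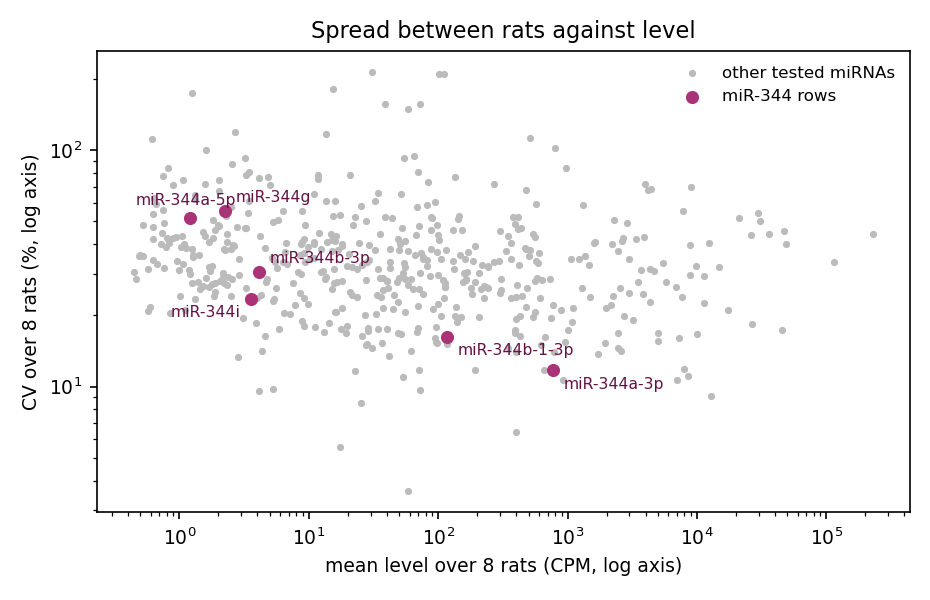
Coefficient of variation over the 8 rats, in percent, against the mean level in CPM, both on log axes, with 1 point for each of the 507 tested miRNAs and the 6 tested miR-344 rows marked. miR-344a-3p, at a CV of 11.7%, and miR-344b-1-3p, at 16.2%, lie near the lower edge for their level, whereas miR-344g and miR-344a-5p lie above the middle.

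The row named as the matching 5p arm, miR-344a-5p, was rare. Counts of miR-344a-5p were 44, 50, 36 and 24 in saline rats 1 to 4, or 1.97, 2.15, 1.31 and 0.938 CPM. In METH rats 1 to 4 they were 16, 24, 14 and 6, or 1.10, 1.21, 0.565 and 0.360 CPM. METH rats 3 and 4 were below every saline rat, while METH rats 1 and 2 lay within the saline range, so the groups overlapped. The mean was 1.59 ± 0.565 CPM (SD, n = 4) in saline rats and 0.808 ± 0.410 CPM (SD, n = 4) in METH rats. The fitted log2 fold change was -0.98, with an SE of 0.44 and a 95% interval of -1.95 to -0.01. The unadjusted p was 0.0486 and the edgeR adjusted p was 0.818, so this difference did not pass. A share of 5.52% of all miRNAs had an unadjusted p under 0.05, and 8.48% were lower in METH by more than 1.5-fold. This cut is milder than the fitted change of miR-344a-5p, which was 0.508-fold. Without METH rat 4 the log2 fold change was -0.73, with an unadjusted p of 0.106.

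The third member, miR-344b-3p, had counts of 110, 66, 122 and 114 in saline rats 1 to 4 and of 78, 80, 128 and 28 in METH rats 1 to 4. In CPM these were 4.93, 2.83, 4.45 and 4.46 in saline rats and 5.36, 4.03, 5.16 and 1.68 in METH rats. METH rats 1 and 3 were above every saline rat and METH rat 4 was below every saline rat. The mean was 4.17 ± 0.918 CPM (SD, n = 4) in saline rats and 4.06 ± 1.69 CPM (SD, n = 4) in METH rats. The fitted log2 fold change was -0.04, with an SE of 0.38, a 95% interval of -0.87 to 0.80 and an adjusted p of 0.985 in edgeR. It was 0.21 without METH rat 4, 0.086 without saline rat 1 and 0.012 without saline rat 3, so its sign rested on single libraries. For miR-344b-5p no comparison was possible, because both groups had 0 counts.

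The other rows of the family gave no call either. miR-344b-1-3p was at 119, 77.4, 108 and 109 CPM in saline rats 1 to 4 and at 130, 138, 123 and 129 CPM in METH rats 1 to 4. All 4 METH rats were above every saline rat, a pattern seen for 1.78% of the 507 miRNAs. The fitted log2 fold change was 0.33, with an SE of 0.22, a 95% interval of -0.15 to 0.81 and an adjusted p of 0.818 in edgeR. The values of miR-344g were 2.15, 2.53, 3.03 and 4.10 CPM in saline rats and 1.37, 1.21, 3.27 and 0.300 CPM in METH rats. The fitted log2 fold change was -0.92, with an SE of 0.55 and an edgeR adjusted p of 0.818, and METH rat 4 had 5 counts. It was -1.63 without METH rat 3, with an unadjusted p of 0.0131, and -0.59 without METH rat 4, with an unadjusted p of 0.179, so its size rested on single libraries. miR-344i was at 2.97 to 4.89 CPM in saline rats and at 1.99 to 4.02 CPM in METH rats, a log2 fold change of -0.22 ± 0.30 (SE). The median log2 fold change was -0.04 over the 3 members tested and -0.13 over the 6 tested rows, against -0.02 over all 507 miRNAs.

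**Figure D3:**
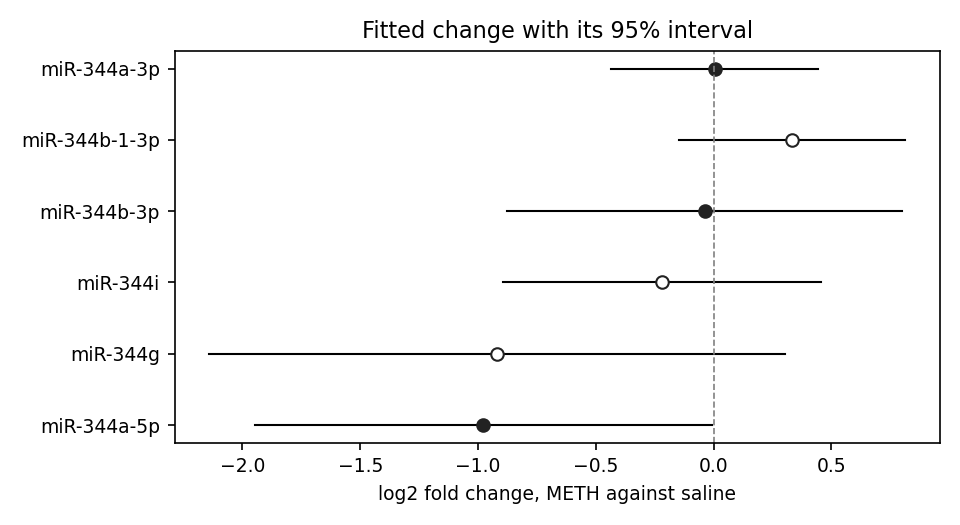
Log2 fold change of METH against saline for the 6 tested miR-344 rows, with points at the fitted value and lines for the 95% interval of the quasi-likelihood fit. Filled points are members and open points are the other rows. The interval of miR-344a-3p is the narrowest, at -0.43 to 0.44, and that of miR-344a-5p, -1.95 to -0.01, ends next to 0.

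The balance between arms was then examined as the log2 ratio of miR-344a-3p to miR-344a-5p within each library, which does not depend on scaling between libraries. These rows were paired as arms by name, since RefSeq holds no entry named miR-344a-3p. miR-344a-3p was 350, 413, 595 and 756 times as frequent as miR-344a-5p in saline rats 1 to 4. The ratio was 773, 690, 1097 and 2157 in METH rats 1 to 4. METH rats 1, 3 and 4 were above every saline rat, and METH rat 2 was within the saline range. The mean log2 ratio was 8.96 ± 0.50 (SD, n = 4) in saline rats and 9.99 ± 0.70 (SD, n = 4) in METH rats, a difference of 1.03 or 2.04-fold. A two-sided exact permutation test gave p = 0.0571, where 0.0286 is the smallest value that 70 assignments allow, and 0.229 after adjustment over the 4 ratios examined. Without METH rat 4, the difference was 0.71. The 5p arm took 0.285% of miR-344a counts in saline rat 1 (95% exact Clopper-Pearson interval 0.207% to 0.382%) and 0.0463% in METH rat 4 (0.0170% to 0.101%), the highest and the lowest of the 8 libraries. Over all rats, the 3p arm held 99.8% of miR-344a counts. This share assumes that reads of both rows were counted alike, and the sequence of miR-344a-5p occurs in 2 hairpins. Of 174 miRNA names with both arms tested, 14 were more one-sided, the median for the major arm was 93.3%, and the 3p arm was the higher in 46.6%. Over all 274 names with both arms listed and any count, 53 were more one-sided and the median was 95.4%.

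Ratios between paralogs were compared in the same way. The log2 ratio of miR-344a-3p to miR-344b-3p was 7.54 ± 0.51 (SD, n = 4) in saline rats and 7.68 ± 0.83 (SD, n = 4) in METH rats. Their difference was 0.14 (two-sided exact permutation test, p = 0.771). It was -0.25 without METH rat 4 and -0.0013 without saline rat 1. For miR-344a-3p to miR-344b-1-3p the log2 ratio was 2.90 ± 0.43 (SD, n = 4) in saline rats and 2.55 ± 0.16 (SD, n = 4) in METH rats. Here the difference was -0.35 (exact permutation test, p = 0.171, adjusted p = 0.343). This difference was -0.14 without saline rat 2 and -0.47 without saline rat 1. Saline rat 2 was the highest at 3.52, with the most miR-344a-3p and the least miR-344b-1-3p of the saline rats in CPM.

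The nearly identical sequences miR-344b-1-3p and miR-344b-3p, which differ by G2A as printed above, kept a close ratio in most libraries. It was 24.2, 27.3, 24.3 and 24.4 in saline rats 1 to 4, and 24.3, 34.3, 23.9 and 76.5 in METH rats 1 to 4. In 5 of the 8 rats the ratio thus lay between 23.9 and 24.4, while saline rat 2, METH rat 2 and METH rat 4 lay above it. The log2 ratio was 4.64 ± 0.08 (SD, n = 4) in saline rats and 5.12 ± 0.78 (SD, n = 4) in METH rats, and the difference was 0.49 (exact permutation test, p = 0.371). Without METH rat 4 it was 0.12. The number of miR-344b-3p counts in METH rat 4 was 28, so its ratio is imprecise.

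**Figure D4:**
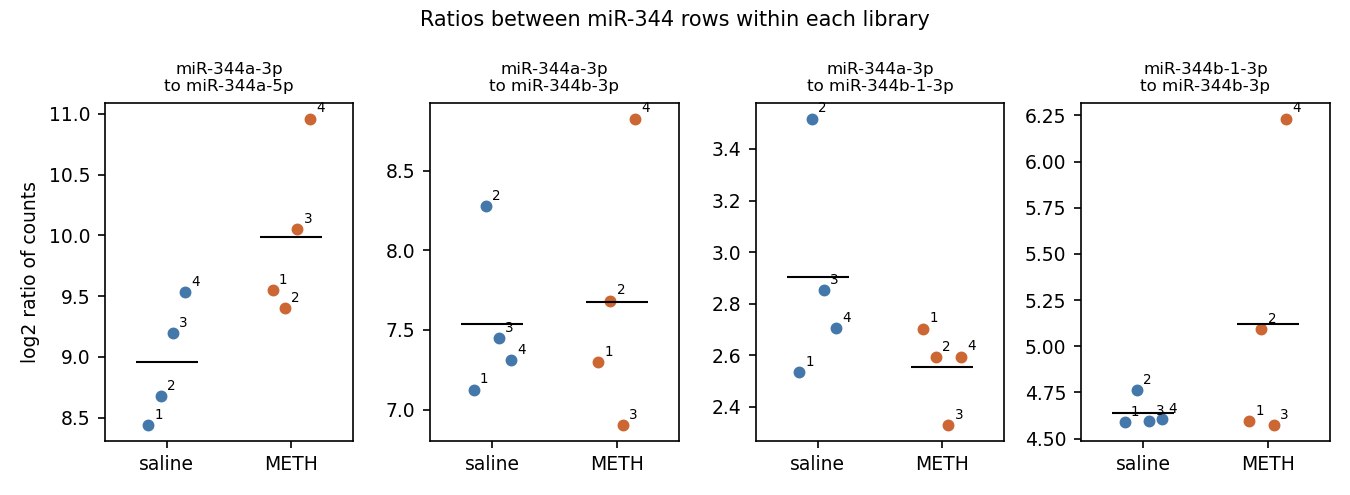
Log2 ratio of counts within each library for 4 pairs of miR-344 rows, with points numbered by rat and a line at each group mean. Vertical axes differ between panels. In the last panel, 5 rats lie together near 4.6 and METH rat 4 lies at 6.23.

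Some rows held even counts alone. miR-344a-5p and miR-344b-3p were even in 8 of 8 libraries, whereas miR-344a-3p was even in 2, miR-344b-1-3p in 6, miR-344i in 6 and miR-344g in 3. Over the whole table, 35 of the 662 detected rows were even in every library, which is 5.29%. Both even-only members are those whose mature sequence occurs in 2 RefSeq hairpins, and the member in 3 hairpins, miR-344b-5p, had no count. Among rows matched to RefSeq, even-only rows made up 4 of 26 detected rows found in 2 hairpins and 26 of 532 found in 1. The other 2 of the 4 were miR-295-3p and miR-664-3p. Of the 7 rows found in 3 or more hairpins, 2 had no count, miR-344b-5p and miR-3084d, and 0 of the 5 detected ones were even-only. No count was also seen for 68 of 600 rows found in 1 hairpin and 2 of 28 found in 2. These rows outside the family were named after their values were seen. What makes a row even-only was not tested. With every even-only row divided by 2, the log2 difference in the arm ratio between METH and saline was 0.99, against 1.03 as deposited. Levels moved more under this division. miR-344b-3p was then at 2.06 CPM, below miR-344i in 7 of 8 rats, and miR-344a-5p was at 0.600 CPM. miR-344b-1-3p was then 56.8 times as abundant as miR-344b-3p. The share of the 5p arm became 0.142% in saline rat 1 (95% Clopper-Pearson interval 0.0893% to 0.216%) and 0.0232% in METH rat 4 (0.00478% to 0.0677%).

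The miRNAs outside the family that share a seed with one of its rows were also read. Of these, only miR-484 shares the seed of a member, among the 3 members with a RefSeq sequence. The seed of miR-344a-3p was not searched, since RefSeq holds no entry under its name. miR-410-3p, with the seed of miR-344b-1-3p, was at 620 ± 71.4 CPM (SD, n = 4) in saline rats and 691 ± 74.0 CPM (SD, n = 4) in METH rats, and its log2 fold change was 0.15 with an SE of 0.19. miR-484, with the seed of miR-344a-5p, was at 189 ± 129 CPM (SD, n = 4) in saline rats and 82.2 ± 36.3 CPM (SD, n = 4) in METH rats, and its log2 fold change was -1.20 with an SE of 0.55 and an edgeR adjusted p of 0.818. The counts of miR-484 were even in 8 of 8 libraries as well. Both were more abundant than the miR-344 row whose seed they share.

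The miRNAs whose levels followed each member most closely over the 8 rats were named by Pearson correlation of log2 CPM among 501 candidates outside the family, as a description, since the highest of many values were picked and the points share library depth and scaling. For miR-344a-3p they were miR-149-3p, miR-582-5p and miR-592, with r of 0.757, 0.746 and 0.742 and Spearman rho of 0.714, 0.643 and 0.667. For miR-344a-5p they were miR-433-3p, miR-135a-5p and miR-135b-5p, with r of 0.968, 0.947 and 0.945 and rho of 0.976, 0.738 and 0.833. Without METH rat 4 these r were 0.958, 0.919 and 0.920. Leaving out the 2 rats farthest from the median of miR-344a-5p gave 0.908, 0.854 and 0.874. For miR-344b-3p they were miR-221-3p, miR-133a-3p and miR-193a-3p, with r of 0.961, 0.907 and 0.899 and rho of 0.810, 0.810 and 0.690. Without METH rat 4 these r were 0.844, 0.574 and 0.544, and without the 2 rats farthest from the median of miR-344b-3p they were 0.311, 0.264 and 0.055. The same 2 steps gave 0.797, 0.747 and 0.783, and 0.621, 0.673 and 0.841, for miR-344a-3p. Leaving out the extreme rats of a member narrows its range and can lower r in itself.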

How the data were processed

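Small RNA of 8 rat striata was analysed. The authors trimmed adapters with cutadapt 1.18, aligned reads to rn6 with STAR 2.7.0e and deposited raw counts per mature miRNA from featureCounts (Subread 1.6.4). The library kit adds unique molecular identifiers, but their merging, the annotation release and the rule for multiple alignments are not given in the sources used here, so intervals and limits cover counting error only. Groups and rat numbers were taken from the sample titles, which name separate rats but no batch. Rows were filtered with filterByExpr (minimum count 10) and scaled by TMM, and METH was compared with saline by quasi-likelihood F-tests (edgeR 4.0.16, R 4.3.3) on a design holding the group alone, with Benjamini-Hochberg adjustment over 507 miRNAs. The SE of a log2 fold change was its size over the root of F. Log2 CPM used a prior count of 2. Ratios had 0.5 added to both counts before the log2 and were tested by two-sided exact permutation (scipy 1.17.1), and ratios printed per rat had none added. On counts simulated for 507 miRNAs in this comparison, the test called 191 of 196 tested miRNAs changed 4-fold, with 8 false calls. This does not give the power for rows that vary more, since in the deposited counts miR-183-5p, at a fitted log2 fold change of 4.26, had an adjusted p of 0.117 and miR-429, at 4.54, had 0.347. Named were all members, the other miR-344 rows, miRNAs with the same seed, the 3 most correlated miRNAs per tested member, and the leading marker miRNA of a list. Members and lists were chosen with earlier results of these data known. Alternatives were other scalings, filters and tests (DESeq2 1.42.0, limma 3.58.1), halved even-only counts, a rat number block and leaving out each library.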

Additional observations from a re-analysis of the deposited data

Results flagged for a closer look

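Within each group of 4 rats, the gap between the lowest or highest rat and its neighbour was set against the whole range of the group. Over 20 such groups of miR-344 levels and ratios, 2 had a rat apart by Dixon's limit, where chance alone gives about 1 in 20. miR-344i was low in METH rat 1, at 1.06 log2 CPM from 29 counts, against 1.89 in the next METH rat. The log2 ratio of miR-344b-1-3p to miR-344b-3p was high in saline rat 2, at 4.76, against 4.60 in the next saline rat, and this group spanned a narrow range of 4.59 to 4.76.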

How the results depend on the processing

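The count of calls was 0 with 3 other scalings, 2 other filters, limma voom, halved even-only counts and the replicate block. It was 8 with DESeq2, all 8 from the marker lists. It was 6 with the edgeR exact test, also all from the marker lists, a count added after seeing the data. The epithelial list was not independent of these data. The count of calls ranged from 0 to 5 with a library left out, the 5 without METH rat 1. No miR-344 row was called in any setting that tested it. At least 10 counts in every library left miR-344a-5p and miR-344g untested. The log2 fold change of miR-344a-3p lay near 0 and turned negative with library totals (-0.11, where the median of all miRNAs was -0.12), with at least 10 counts in every library (-0.0074), with voom (-0.0016) and with halved even-only counts (-0.033). It ranged from -0.070 to 0.11 with a library left out. That of miR-344b-3p turned positive with upper quartile scaling (0.042) and voom (0.088), and ranged from -0.19 to 0.21 with a library left out. The cause was not tested. That of miR-344a-5p stayed negative, from -1.07 to -0.52 across the settings that tested it and from -1.27 to -0.73 with a library left out. The arm ratio difference stayed positive, from 0.71 to 1.23 with a library left out. The difference for miR-344a-3p to miR-344b-3p ranged from -0.25 without METH rat 4 to 0.40. With the replicate block the log2 fold changes were 0.0014 for miR-344a-3p, -1.04 for miR-344a-5p and -0.12 for miR-344b-3p, with an exact p of 0.125 for the arm ratio, and no call changed. Same-numbered rats share only a number, and their correlations were -0.34, -0.15, -0.15 and -0.36.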
